A study of Mus musculus with 6 samples.

Results

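The genes described here are 8 regulators of epidermal terminal differentiation and members of the C/EBP family, namely Cebpa, Cebpb, Cebpd, Prdm1, Maf, Vdr, Rora and Ezh2, of 21000 protein-coding genes with a curated RefSeq start site. They were examined in p65 ChIP–seq peak lists of mouse epidermal cells, a method that recovers DNA bound by a protein with an antibody and sequences it. A peak was assigned to a gene when the start site nearest to its middle belonged to that gene, and peaks within 50 kb of a member's start site were followed as well. Epidermal cells came from C57BL/6J mice in 3 conditions. No treatment is stated for mice labelled adult. Aged mice of the aged/IgG control group received a control IgG by intraperitoneal injection for 12 weeks. Aged mice of the aged/anti-IL-17A/F group received antibodies that block IL-17A and IL-17F for the same time. The lists address how p65 occupancy of the epidermis compares between ages and with IL-17 blocked. Each condition is a pool of 4 mice with 1 peak list and no replicates, so that no spread between animals and no test between conditions can be given, and the number of reads behind a single peak is unknown, although the authors brought the pools to the same number of reads.

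Keratinocytes leave the basal layer of the epidermis, stop dividing and switch on the genes of the barrier in an ordered sequence. C/EBP proteins, BLIMP1 (encoded by Prdm1), MAF and nuclear receptors such as the vitamin D receptor act as transcription factors in this program, whereas EZH2, the methyltransferase of Polycomb repressive complex 2, places the repressive methyl mark on lysine 27 of histone H3 and restrains differentiation genes in progenitors. p65 (encoded by Rela) is a DNA-binding subunit of NF-κB, which acts downstream of many inflammatory receptors, including those for IL-17.

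The adult list held 8525 peaks, that of aged/IgG control 4169 and that of aged/anti-IL-17A/F 6014. The authors' fold enrichment over local background had a median of 3.60, 3.80 and 3.69, respectively, and a lowest value of 1.85, 1.90 and 1.93. All peaks in the adult list carry a name that begins with "Treated", the stem used in the aged/anti-IL-17A/F list, whereas names in the aged/IgG control list begin with "Control". The labels were followed here. If these 2 lists had been exchanged, the values given for adult and aged/anti-IL-17A/F would trade places, while a statement about presence in both and absence in aged/IgG control would read the same.

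In adult, 15 peaks were assigned to 5 of the 8 genes (23.0% of all protein-coding genes were bound in this sense). In aged/IgG control, 1 peak was assigned to 1 gene, Cebpa (12.9% of all genes), and in aged/anti-IL-17A/F 9 peaks were assigned to 6 genes (17.4% of all genes). Cebpa was the 1 gene of the group with a peak in every list, which 11.4% of all genes had. Ezh2, Prdm1, Vdr and Rora had peaks in adult and aged/anti-IL-17A/F, with none in aged/IgG control, a pattern found in 4.31% of all genes. For Cebpb, aged/anti-IL-17A/F was the 1 list with a peak (1.48% of all genes), and Cebpd and Maf had none in any list (74.9%). Thus 4 of the 5 genes with an adult peak had none in aged/IgG control, against 46.7% of all genes with an adult peak, and 4 of these 4 had one in aged/anti-IL-17A/F, against 40.1% of all genes lost in this way. None of the 5 lacked a peak after the IL-17 antibodies (31.9% of all genes with an adult peak). These counts depended on the number of peaks called and on the assignment. With each list reduced to its strongest 4169 peaks, adult had 3 peaks at 3 genes, and Ezh2 and Prdm1 kept the pattern, while Vdr left both lists and Rora left the adult list. With predicted RefSeq transcripts included, Prdm1 had no peak in any list. Protein-coding start sites alone gave Cebpb a peak in every list and Maf a peak in both adult and aged/anti-IL-17A/F. With assignment limited to 10 kb from a start site, Prdm1 again had none and Rora had none after the IL-17 antibodies, which left Ezh2 and Vdr with the pattern.

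Most peaks at these genes were weak within their own lists. The median fold enrichment was 3.19 over the 15 adult peaks and 3.01 over the 9 aged/anti-IL-17A/F peaks, and the aged/IgG control peak had 5.10. In percentiles, meaning the share of the peaks of a list at or below a given fold enrichment, the medians were 34.9 in adult and 23.9 in aged/anti-IL-17A/F, and the aged/IgG control peak was at 76.3. Of the 15 adult peaks, 3 lay within 1 kb of the start site and 10 beyond 10 kb. Of all adult peaks at protein-coding genes, 40.0% lay within 1 kb and 38.1% beyond 10 kb.

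**Figure D1:**
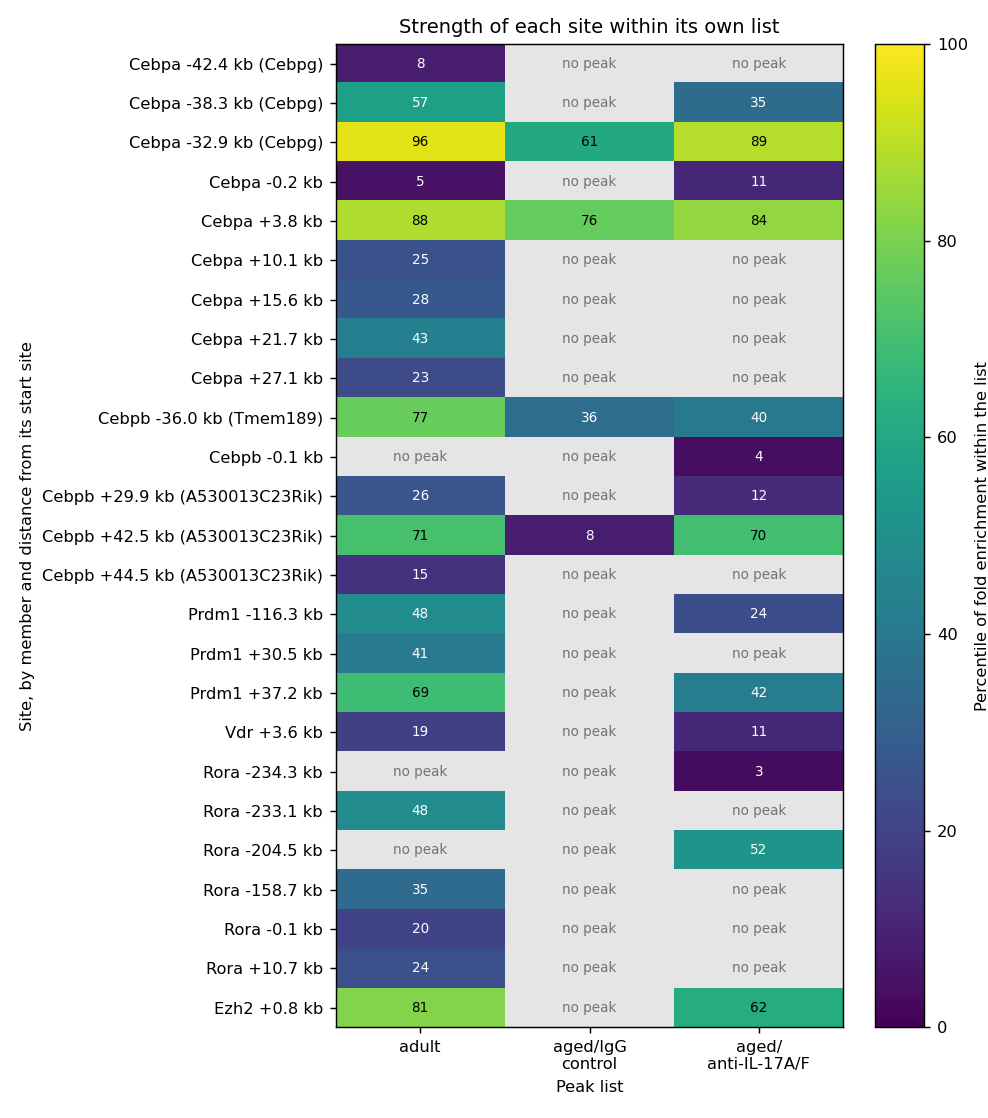
Percentile of the fold enrichment of each site within its own list, for every assigned peak and every peak within 50 kb of a start site, with rows named by gene and distance in kb from its start site (plus, downstream) and the nearest gene in brackets where it is another one. The Ezh2 site is at percentiles 81.4 (adult) and 61.9 (aged/anti-IL-17A/F) with no aged/IgG control peak, and 4 of the sites have a peak in every list.

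Ezh2 had the strongest of the peaks that were missing in aged/IgG control. The gene spans 47530274 to 47595030 of chromosome 6, minus strand (GRCm38, the assembly of mm10). Its single adult peak, from 47593991 to 47594464, falls in an intron 0.8 kb downstream of the start site. The sequence around its summit is shown because it holds the NF-κB consensus, the decamer to which p65 dimers bind, in capitals, on the plus strand of chr6:47594074-47594354.
Ezh2, intron: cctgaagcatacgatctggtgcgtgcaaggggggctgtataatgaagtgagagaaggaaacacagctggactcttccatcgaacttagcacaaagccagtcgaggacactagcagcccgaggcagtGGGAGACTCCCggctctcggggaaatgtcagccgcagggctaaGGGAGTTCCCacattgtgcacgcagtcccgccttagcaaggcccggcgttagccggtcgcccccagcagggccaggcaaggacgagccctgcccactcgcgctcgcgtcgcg
The capitals cover 3 matches to the consensus. GGGAGACTCC starts at 47594200 and is overlapped by GGGAGTCTCC on the minus strand, and GGGAGTTCCC starts at 47594243. The centres of these matches lay 9, 8 and 34 bp from the adult summit.

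The fold enrichment at Ezh2 was 5.55 in adult (−log10 q, 30.6) at rank 1583. In aged/anti-IL-17A/F it was 4.12 (−log10 q, 16.2) at rank 2293. Both peaks are therefore in the upper part of their lists, and their summits were 10 bp apart. In aged/IgG control, no peak was called there, and the closest one was 284686 bp away. Absence from aged/IgG control was uncommon among the adult peaks of its decile. Among the adult peaks of its decile of fold enrichment (1 of 10 equal groups by strength), 93.4% were overlapped by an aged/IgG control peak and 98.1% by an aged/anti-IL-17A/F peak. Of 1594 adult peaks at least as strong as that of Ezh2, 41 (2.57%) had no aged/IgG control peak, and 38 of these 41 had one in aged/anti-IL-17A/F. By this rule the Ezh2 peak is at the weak end of the 1594, and it is near the lower end of its decile (5.38 to 7.14). Of adult peaks in the decile below, 74.2% were overlapped by an aged/IgG control peak.

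Prdm1 encodes BLIMP1, a zinc finger repressor of transcription that acts late in epidermal differentiation. The gene spans 44437174 to 44458748 of chromosome 10, minus strand. No list had a peak at its promoter. Its strongest adult peak spans 44421276 to 44421821, 37.2 kb downstream of the start site and beyond the 3′ end of the gene. Its summit sequence is shown because the consensus match lies 24 bp from the summit (chr10:44421406-44421686, plus strand, consensus in capitals).
Prdm1, downstream: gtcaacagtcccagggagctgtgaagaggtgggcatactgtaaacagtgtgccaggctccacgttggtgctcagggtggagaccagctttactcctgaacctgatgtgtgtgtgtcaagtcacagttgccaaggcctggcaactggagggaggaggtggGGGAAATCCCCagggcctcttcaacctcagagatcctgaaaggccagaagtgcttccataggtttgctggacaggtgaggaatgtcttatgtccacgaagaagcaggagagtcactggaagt
The capitals hold GGGAAATCCC and, shifted by 1 base on the minus strand, GGGGATTTCC.

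At this Prdm1 site the fold enrichment was 4.43 in adult, at percentile 68.9, and 3.44 in aged/anti-IL-17A/F, at percentile 42.1. The summits in both lists were 3 bp apart, and the closest aged/IgG control peak was 647851 bp away. Of adult peaks in the same decile, 54.8% were overlapped in aged/IgG control, against 75.2% in aged/anti-IL-17A/F. A second site, 116.3 kb upstream of the start site, had a fold enrichment of 3.54 in adult and 3.01 in aged/anti-IL-17A/F. Another, 30.5 kb downstream, was in the adult list alone with 3.34. The site 116.3 kb upstream held a match to the C/EBP motif TTGCNNAA, TTGCATAA, 25 bp from the adult summit, and that 30.5 kb downstream held TTGCTCAA. Neither of these 2 sites held the NF-κB consensus.

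In adult, the strongest peaks of the nuclear receptor genes of the group were weaker than those of Ezh2 and Prdm1. In aged/anti-IL-17A/F, however, the strongest peak of Rora (3.75) was above that of Prdm1 (3.44). Vdr, which encodes the receptor for the active form of vitamin D, spans 97854427 to 97908296 of chromosome 15, minus strand. Its only site is in an intron 3.6 kb downstream of the start site. Rora encodes RORα, a nuclear receptor that binds DNA as a monomer, and lies on the plus strand of chromosome 9 from 68653786 to 69388246 with a second curated start site at 69289841. The windows shown are those whose peaks hold the consensus, in capitals, on the plus strand of chr15:97904625-97904905, chr9:69131035-69131315 and chr9:69300383-69300663. For the last, the match reads GGGGCTTTCC on the minus strand.
Vdr, intron: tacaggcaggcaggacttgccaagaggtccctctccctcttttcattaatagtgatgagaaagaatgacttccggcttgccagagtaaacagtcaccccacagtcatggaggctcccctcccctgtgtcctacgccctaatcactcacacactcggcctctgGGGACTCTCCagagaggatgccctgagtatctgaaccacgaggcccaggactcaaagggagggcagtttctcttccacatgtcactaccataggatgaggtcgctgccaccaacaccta
Rora, upstream of the second start site: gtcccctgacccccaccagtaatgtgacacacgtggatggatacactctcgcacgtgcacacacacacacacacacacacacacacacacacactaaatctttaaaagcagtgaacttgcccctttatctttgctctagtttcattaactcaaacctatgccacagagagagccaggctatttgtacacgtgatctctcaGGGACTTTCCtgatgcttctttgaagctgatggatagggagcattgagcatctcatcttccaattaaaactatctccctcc
Rora, downstream of the second start site: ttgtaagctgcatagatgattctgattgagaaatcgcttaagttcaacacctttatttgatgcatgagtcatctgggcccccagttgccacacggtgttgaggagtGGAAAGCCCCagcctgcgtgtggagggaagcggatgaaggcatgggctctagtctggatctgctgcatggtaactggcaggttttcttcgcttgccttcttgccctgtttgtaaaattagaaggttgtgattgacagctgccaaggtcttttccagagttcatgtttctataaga

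At Vdr, the fold enrichment was 2.84 in adult, at percentile 18.8, and 2.71 in aged/anti-IL-17A/F, at percentile 11.3. These values are close to the weak end of both lists. The match GGGACTCTCC, from 97904787 to 97904796, was 27 bp from the adult summit and 142 bp from that in aged/anti-IL-17A/F, the summits being 115 bp apart. In aged/IgG control the closest peak was 78820 bp away, and in the same decile of adult peaks 12.4% were overlapped there and 30.4% in aged/anti-IL-17A/F. Absence from aged/IgG control was thus usual for adult peaks of this strength.

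Rora had peaks in both lists but at different places. In adult, sites lay 233.1 and 158.7 kb upstream of the second start site, at 0.1 kb upstream of it and 10.7 kb downstream, all inside introns of the longer transcript. Their fold enrichments were 3.54, 3.19, 2.88 and 2.97. The aged/anti-IL-17A/F sites were 234.3 and 204.5 kb upstream, with fold enrichments of 2.41 and 3.75. None of the 4 adult Rora peaks overlapped an aged/anti-IL-17A/F peak, and the nearest pair was separated by 898 bp. The aged/anti-IL-17A/F site 204.5 kb upstream was at percentile 51.9 of its list, and 89.2% of the peaks in its decile were overlapped by an adult peak. The closest aged/IgG control peak to any of them was 152865 bp away. The gene is therefore counted as present in both lists without a shared site. The consensus match GGGACTTTCC lies 65 bp from the adult summit of the site 158.7 kb upstream.

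Among the C/EBP genes of the group, Cebpa had the most peaks under the assignment used here. C/EBPα is a basic leucine zipper factor that halts proliferation in many lineages and is present in suprabasal keratinocytes. Its gene lies on the plus strand of chromosome 7 from 35119293 to 35121928. It had 6 adult peaks, a number reached or exceeded by 65 (1.34%) of the 4836 genes with an adult peak, against 1 peak in aged/IgG control. Its aged/anti-IL-17A/F peaks numbered 2. The adult count rested on the gene models, since 4 of the 6 adult peaks lay nearer to predicted noncoding genes, and with those included Cebpa had 2 peaks in both lists. The windows below are those of the site present in every list, which has no consensus match (chr7:35122895-35123175, no capitals), of the strongest site of the region (chr7:35086226-35086506) and of an adult site with a match and a neighboring AP-1 motif (chr7:35129223-35129503), all on the plus strand with the consensus in capitals.
Cebpa, downstream, in every list: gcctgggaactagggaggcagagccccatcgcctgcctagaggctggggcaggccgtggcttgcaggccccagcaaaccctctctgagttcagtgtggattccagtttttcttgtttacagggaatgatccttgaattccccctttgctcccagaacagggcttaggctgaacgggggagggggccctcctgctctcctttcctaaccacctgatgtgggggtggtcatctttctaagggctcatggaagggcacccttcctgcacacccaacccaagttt
Cebpa, upstream, nearest to Cebpg: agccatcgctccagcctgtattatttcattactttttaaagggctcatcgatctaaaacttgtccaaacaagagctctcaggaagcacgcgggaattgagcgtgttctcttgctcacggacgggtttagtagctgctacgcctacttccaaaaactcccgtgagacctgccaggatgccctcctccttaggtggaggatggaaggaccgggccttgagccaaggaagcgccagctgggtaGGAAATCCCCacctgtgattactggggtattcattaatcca
Cebpa, downstream, adult only: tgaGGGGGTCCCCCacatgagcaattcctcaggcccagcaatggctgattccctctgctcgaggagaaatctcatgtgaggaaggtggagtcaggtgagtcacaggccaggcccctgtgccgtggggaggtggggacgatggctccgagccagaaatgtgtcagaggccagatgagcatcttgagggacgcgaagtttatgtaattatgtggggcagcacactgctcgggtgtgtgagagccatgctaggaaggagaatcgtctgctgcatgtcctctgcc

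The Cebpa site 3.8 kb downstream of the start site was the only one assigned to any of the 8 genes in aged/IgG control. Its fold enrichment was 6.71 in adult and 5.10 in aged/IgG control. With 5.90, aged/anti-IL-17A/F stood between them. The ranks were 1010, 990 and 986 and the percentiles 88.2, 76.3 and 83.6. The aged/IgG control value was 0.761 of the adult value. Over all 3879 adult peaks that overlap one in aged/IgG control, this ratio had a median of 0.812 (10th to 90th percentile, 0.584 to 1.13), so that the site was near the middle of the shared peaks. At the start site of Cebpa itself, 0.2 kb upstream, the fold enrichment was 2.45 in adult, against 2.70 in aged/anti-IL-17A/F, with no peak in aged/IgG control. A run of 4 weak sites followed in adult alone, 10.1, 15.6, 21.7 and 27.1 kb downstream, with fold enrichments of 2.98, 3.05, 3.41 and 2.95. Of these, the first held a consensus match outside the 100 bp around its summit and TGAGTCA, a match to the AP-1 motif TGANTCA, 42 bp from it.

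The strongest peak within 50 kb of any of the 8 start sites was 32.9 kb upstream of Cebpa and had its nearest start site at Cebpg, which encodes the related factor C/EBPγ. Its fold enrichment was highest in adult (9.78), lowest in aged/IgG control (4.23) and between them in aged/anti-IL-17A/F (6.80). The −log10 q values were 85.6, 20.6 and 45.6, and the ranks 342, 1632 and 670. The aged/IgG control value was 0.433 of the adult value, and 0.902% of the shared peaks had a lower ratio. Shared peaks of all strengths are counted here. Since no aged/IgG control peak was below 1.90, the weaker adult peaks could not have so low a ratio. The share was not taken among peaks of similar strength. The ratio of aged/anti-IL-17A/F to aged/IgG control was 1.61, with 93.5% of 3612 shared peaks below it (median 1.10). GGGGATTTCC lies on the minus strand from 35086466 to 35086475, inside the peak in all 3 lists. Another peak nearest to Cebpg, 38.3 kb upstream of Cebpa, had 3.81 in adult and 3.26 in aged/anti-IL-17A/F and was not called in aged/IgG control, and one 42.4 kb upstream had 2.56 in adult alone.

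**Figure D2:**
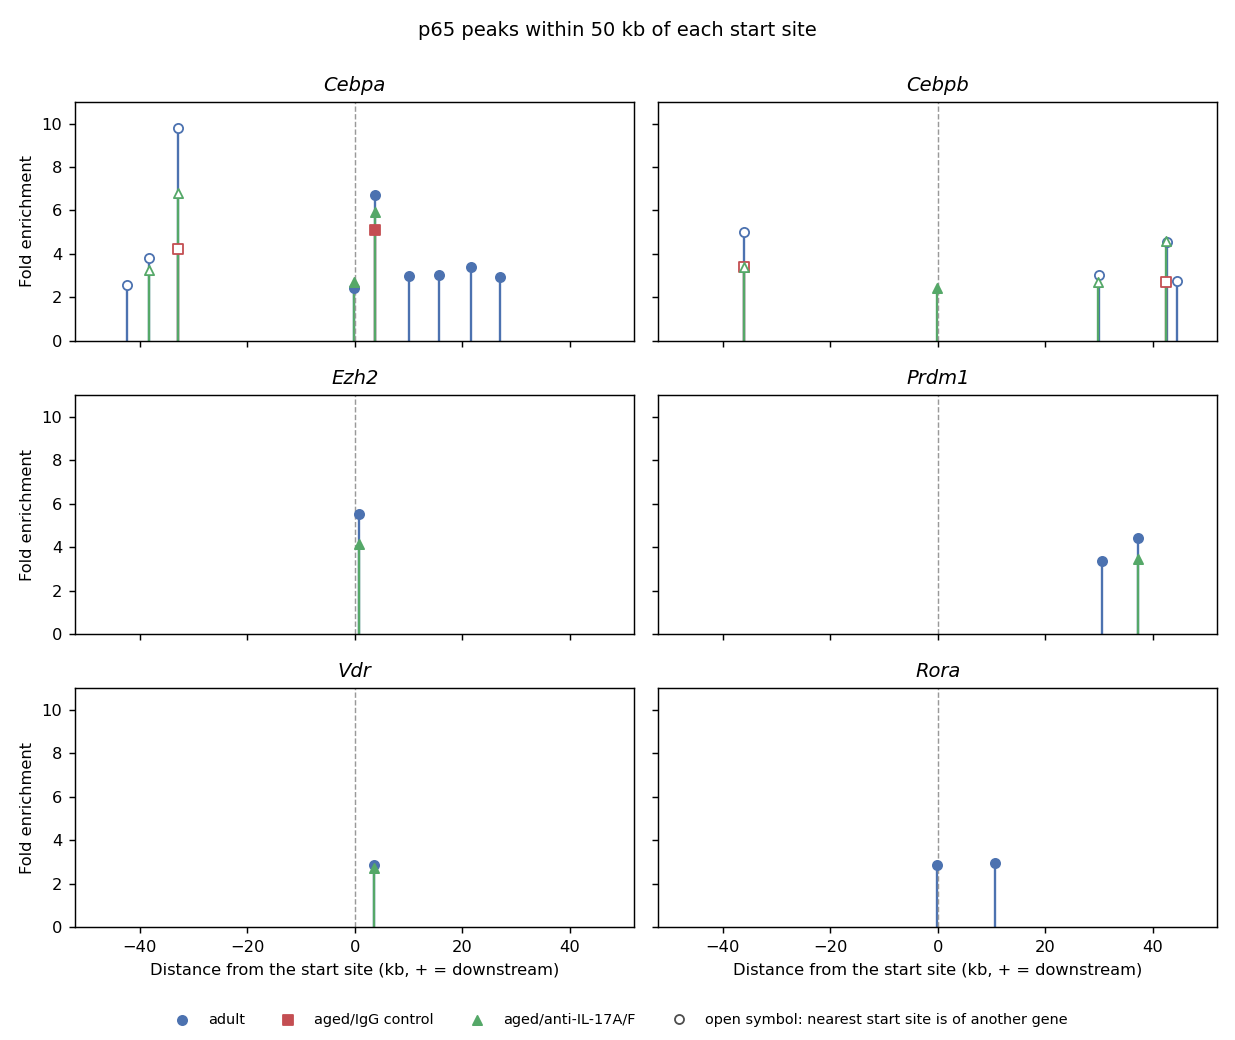
Fold enrichment of p65 peaks (vertical axis) against distance from the start site in kb (horizontal axis, plus is downstream) for the 6 genes with a peak within 50 kb, with open symbols where the nearest start site is that of another gene. Red squares of aged/IgG control appear at Cebpa and Cebpb and are absent from the other 4 panels.

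Cebpb, whose product C/EBPβ acts in the first steps of keratinocyte differentiation and in inflammatory signaling, lies on the plus strand of chromosome 2 from 167688915 to 167690432. Its assigned peak was in aged/anti-IL-17A/F alone, from 167688660 to 167688959, across the start site. The fold enrichment was 2.43 and the −log10 q 5.20, at percentile 3.54 of the list. This is one of the weakest peaks, in sequence with 80.7% G and C against a median of 53.0% over all peaks of that list. The region around Cebpb held stronger peaks that were nearest to other genes. When only start sites of protein-coding genes were used, Cebpb gained 9 peaks in adult, 4 in aged/IgG control mice and 6 after the IL-17 antibodies. A site in an intron of Tmem189, 36.0 kb upstream, had 5.01 in adult, against 3.41 in aged/IgG control mice and 3.40 in aged/anti-IL-17A/F. Both aged values were nearly the same and below that of adult.

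A site 42.5 kb downstream of Cebpb, nearest to the noncoding gene A530013C23Rik, differed between the aged lists. Its fold enrichment was 2.70 in aged/IgG control, whereas adult had 4.54 and aged/anti-IL-17A/F had 4.57. The ratio of aged/anti-IL-17A/F to aged/IgG control was 1.70, above that of 96.0% of shared peaks, and the ratio of aged/IgG control to adult was 0.594, with 11.2% of shared peaks lower. Shared peaks of all strengths were again counted. It held no NF-κB consensus, but the AP-1 match TGACTCA from 167731291 to 167731297 was inside the peak in all 3 lists. Sites 29.9 and 44.5 kb downstream, nearest to the same gene, were not called in aged/IgG control. The first had 3.01 in adult and 2.72 in aged/anti-IL-17A/F, and the second had 2.75 in adult alone.

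**Figure D3:**
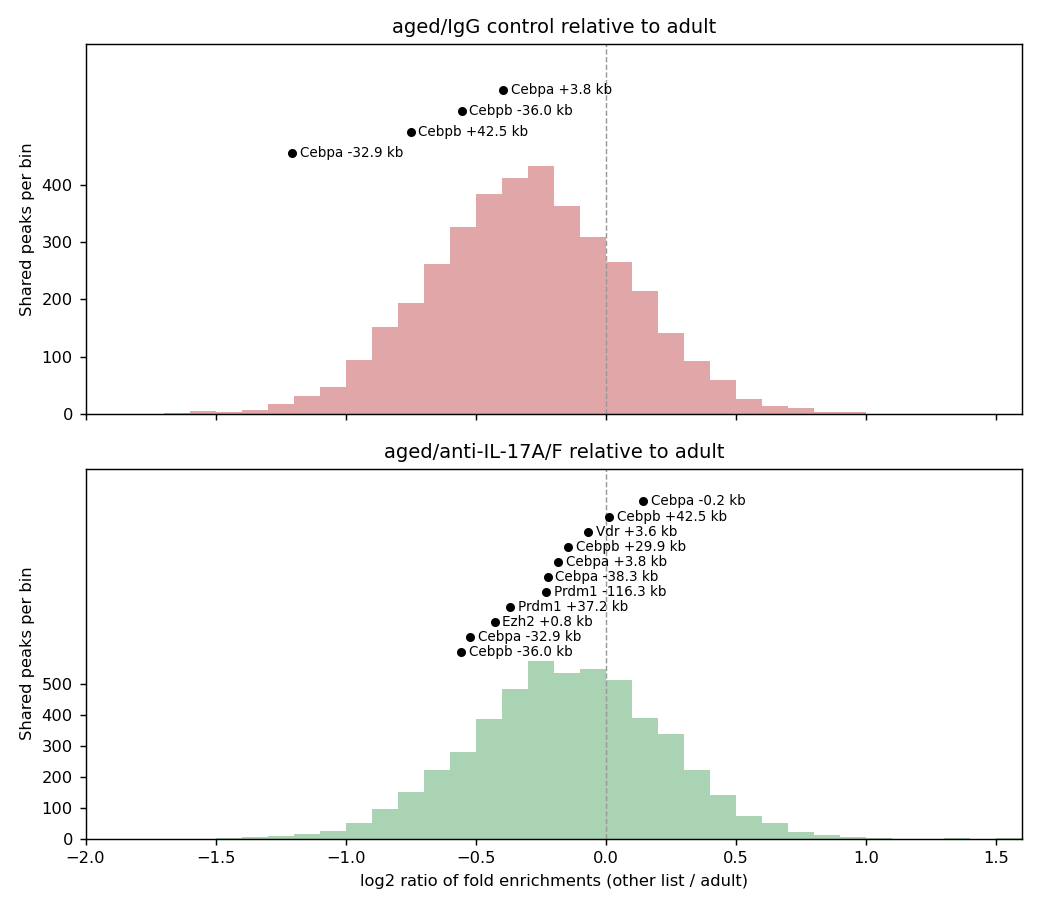
Histograms of the log2 ratio of fold enrichments over peaks shared with adult (horizontal axis, other list divided by adult; vertical axis, peaks per bin of the histogram), with a dot for each site of the 8 genes placed at its ratio and stacked for legibility. In aged/IgG control 4 sites are shared and all lie below 0, as do 78.5% of all shared peaks, with the site upstream of Cebpa at the far left, where 0.902% of shared peaks have a lower ratio. Peaks of all strengths are included, and weaker adult peaks cannot reach the lowest ratios.

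Cebpd and Maf had no peak within 50 kb in any list. C/EBPδ is a family member induced in acute inflammation, and MAF is a large Maf protein that acts in epidermal differentiation. The peak closest to the start site of Cebpd (chromosome 16, plus strand, 15887286 to 15889545) was 979087 bp away in adult, 1001684 bp away in aged/IgG control mice and 288352 bp away after the IL-17 antibodies. In the same order, for Maf (chromosome 8, minus strand, 115703253 to 115706894) the distances were 81884, 748352 and 81862 bp. The peaks at about the same distance from Maf in adult and aged/anti-IL-17A/F had fold enrichments of 3.58 and 3.30 and were nearest to the noncoding gene Gm30712.

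Counted by distance alone, 6 of the 8 genes had a peak within 50 kb of a start site in adult (43.4% of all genes). The number was 2 in aged/IgG control (27.5%), against 5 in aged/anti-IL-17A/F (35.0%). These were 19, 4 and 11 peaks, of which 7, 3 and 5 were nearest to the start site of another gene. In aged/IgG control both genes were C/EBP genes, Cebpa and Cebpb.

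Peak by peak, 1 of the 15 adult peaks assigned to the group was overlapped by an aged/IgG control peak, against 45.5% of all adult peaks. Because overlap rose with peak strength, the share was also read within the deciles of adult fold enrichment that hold these peaks, where it averaged 33.0%. An aged/anti-IL-17A/F peak overlapped 6 of the 15, against 60.4% of all adult peaks and a mean of 49.3% at the same strength. The 6 were the site at Ezh2, that at Vdr, 2 at Cebpa and 2 at Prdm1. The 1 aged/IgG control peak was overlapped in aged/anti-IL-17A/F, as were 86.6% of all aged/IgG control peaks.

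**Figure D4:**
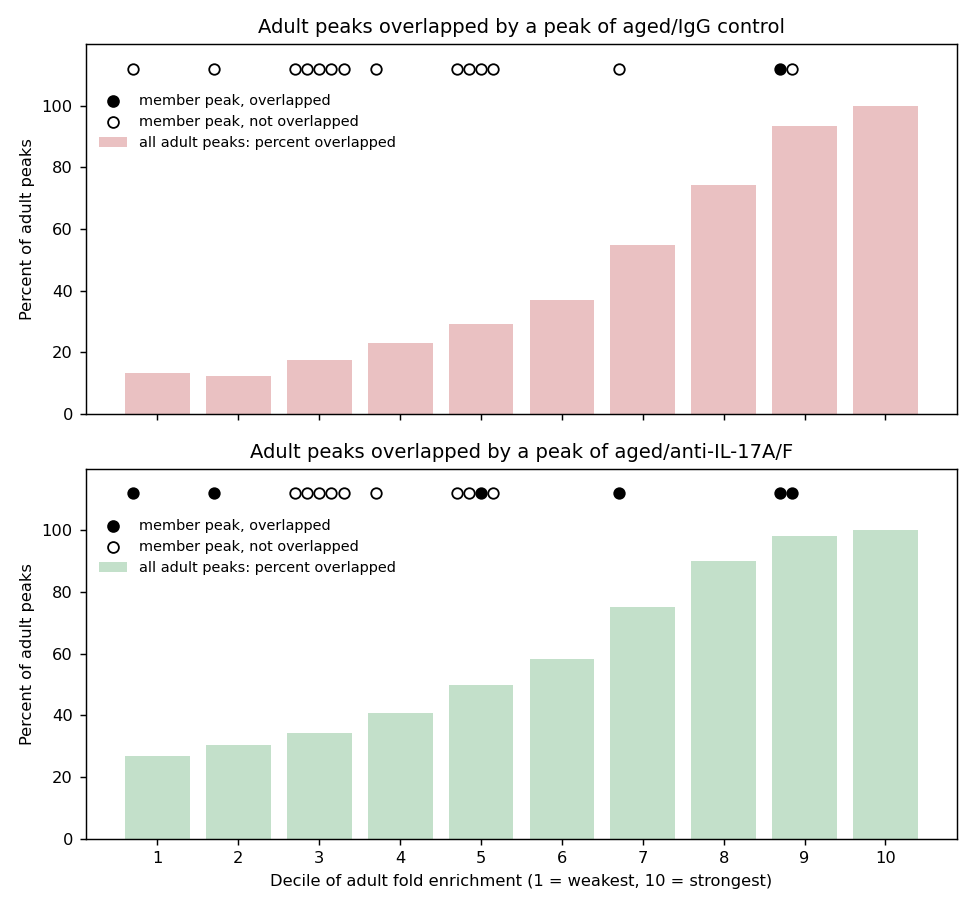
Percent of all adult peaks overlapped by a peak of the other list (bars) in each decile of adult fold enrichment from weakest (1) to strongest (10), with the 15 adult peaks of the group as circles above their decile, filled where overlapped. In the panel for aged/IgG control 1 circle is filled and in that for aged/anti-IL-17A/F 6 are, and the open circle at decile 9 of the first panel is the Ezh2 peak.

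The NF-κB consensus was sought on both strands within 100 bp of the summits, with overlapping matches counted. It was present at 5 of the 15 adult peaks of the group (28.5% of all adult peaks), at 0 of 1 in aged/IgG control (37.8%) and at 2 of 9 in aged/anti-IL-17A/F (34.9%). Equally wide windows 2000 bp away on both sides of all peaks held it in 2.18%, 1.95% and 2.26% of cases. The 5 adult peaks were those shown at Ezh2, Prdm1, Vdr and Rora, the last with 2 sites. A looser pattern of GGG and CC with 5 free bases between them was at 13, 1 and 6 peaks of the group, and at 67.9%, 72.8% and 70.3% of all peaks. The AP-1 motif TGANTCA was within 100 bp of 2 of the 15 adult summits (13.2% of all adult peaks) and of none in the other lists (14.1% and 14.4%). The C/EBP motif TTGCNNAA was at 2 adult and 2 aged/anti-IL-17A/F peaks and at none in aged/IgG control (9.81%, 9.63% and 9.57% of all peaks). In the promoter windows of RefSeq, which cover 6 of the 8 genes, none held the NF-κB consensus, against 4.51% of 32851 promoters. A match describes the letters of the sequence and is no evidence of binding by that factor.

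The relatives and partners of these genes were taken from 5 lists with 75 genes in all, of which 67 are not among the 8. Of these 67, 44 had an adult peak, 28 an aged/IgG control peak and 36 an aged/anti-IL-17A/F peak, against 23.0%, 12.9% and 17.4% of all protein-coding genes, the shares beside which each list below is also to be read. The values given for these genes are the fold enrichment of the strongest assigned peak, at any distance from the start site. In all, 16 of the 44 (36.4%, against 46.7% of all genes with an adult peak) had none in aged/IgG control, and 7 of the 16 (43.8%, near the 40.1% of all such genes) had one in aged/anti-IL-17A/F, and 0 genes had one in aged/IgG control without one in adult. Among the C/EBP genes and related leucine zipper genes, 4, 4 and 5 of 8 had a peak in the adult, aged/IgG control and IL-17 antibody lists, respectively, an order kept for the counts that follow. The highest fold enrichments were those of Cebpg in adult (9.78) and aged/anti-IL-17A/F (6.80) and of Cebpa in aged/IgG control (5.10). Of the Maf genes and their Bach partners, 6, 3 and 3 of 9 had a peak, led in each list by the small Maf gene Maff with 7.99, 5.47 and 6.17. Mafk had a peak in adult alone (2.46). Bach2 had 3.19 in adult and 3.16 in aged/anti-IL-17A/F, and Bach1 5.09 in adult and 2.54 in aged/IgG control.

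Of the nuclear receptors and genes of vitamin D handling, 16, 8 and 13 of 24 had a peak. Nr1d1, which encodes the circadian repressor REV-ERBα, led each list with 14.1, 9.60 and 13.9. The RXR genes, whose products pair with the vitamin D receptor, were not alike. Rxrb had a peak with 3.21 in adult and 2.88 in aged/anti-IL-17A/F and none in aged/IgG control, Rxra had one in every list (3.87 in adult, 3.66 in aged/IgG control mice and 3.57 after the IL-17 antibodies), and Rxrg had none. A peak in adult and aged/anti-IL-17A/F without one in aged/IgG control was also found for Rara, which encodes a retinoic acid receptor (4.47 and 3.36), for Thra, which encodes a thyroid hormone receptor (4.81 and 3.75), and for the glucocorticoid receptor gene Nr3c1 (2.92 and 3.30). Thrb had 4.78 in adult and 3.41 in aged/IgG control, and Ppara (2.96) and Nr1h2 (2.41) were in the adult list alone. Cyp24a1 and Cyp27b1, which encode the enzymes that degrade and make active vitamin D, had no peak in any list.

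The other factors of terminal differentiation had peaks more often, with 12, 10 and 13 of 14. Klf4, a zinc finger factor needed for the barrier, had the highest fold enrichment in adult (12.7) and aged/anti-IL-17A/F (11.8), and Elf3, an epithelial ETS factor, in aged/IgG control (11.1). Prdm1 and Grhl1 were the 2 genes of this list with a peak in adult and aged/anti-IL-17A/F and none in aged/IgG control. Grhl1 had 3.88 in adult and 2.59 in aged/anti-IL-17A/F, and Foxn1 had 3.30 in aged/anti-IL-17A/F alone. Of the Polycomb genes and histone H3 lysine 27 demethylase genes, 11, 4 and 8 of 20 had a peak. The highest fold enrichment was that of Aebp2 in aged/IgG control (4.69) and that of the demethylase gene Kdm6b in aged/anti-IL-17A/F (7.54). This Kdm6b peak lay at −53317 bp from the start site. Among core partners of EZH2, Suz12 (2.92), Eed (2.53) and Rbbp4 (2.64) had a weak peak in adult alone, and Rbbp7 had none in any list. Cbx8 followed the pattern of Ezh2, with 4.62 in adult and 3.71 in aged/anti-IL-17A/F. Cbx7 (3.12) and Ring1 (2.64) were in the adult list alone, and Rnf2 (2.46) and Mtf2 (3.30) in aged/anti-IL-17A/F alone.

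**Figure D5:**
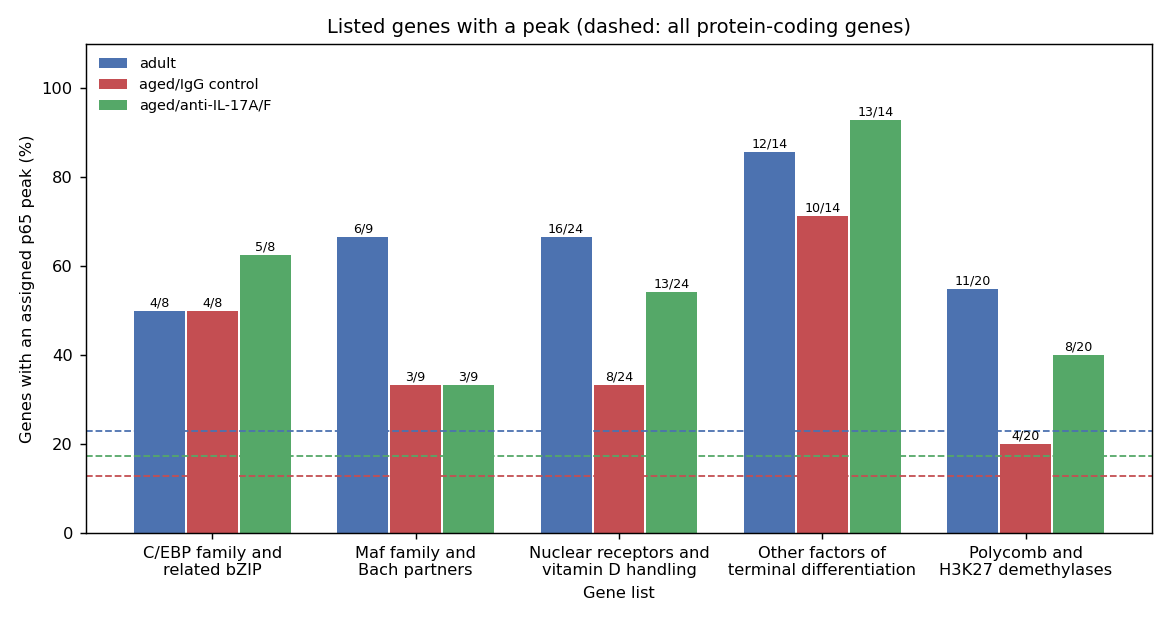
Percent of the genes of each list with an assigned p65 peak (bars, with the count over the number of genes above) in the 3 conditions, beside the share of all protein-coding genes (dashed lines in the colors of the bars). The Polycomb list stands at 11 of 20 genes in adult, whereas aged/IgG control has 4 and aged/anti-IL-17A/F has 8.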

How the data were processed

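p65 ChIP–seq was done on epidermal cells of 4 mice per condition. According to the methods and the submitters' processing notes, the authors used Trimmomatic 0.36 for trimming, BWA for alignment to mm10 and SAMtools to merge and deduplicate the pools, downsampled them, and took peaks from MACS2 (q value threshold, 0.01). The notes also name featureCounts and R 4.0.5. The deposited lists give for each peak the authors' fold enrichment (a ratio to local background), its p-value and q-value as −log10, a score that is 10 times the −log10 q-value, and the summit. Pooling removes the spread between mice, and a peak near the threshold can be called in 1 list and missed in another with little difference in signal. The 3 inputs were not analysed here.

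Peaks were assigned to the nearest start site of curated RefSeq transcripts of GRCm38 (31647 sites), in place of the authors' own annotation, and compared by overlap of at least 1 bp. Fold enrichments were ranked within a list, since no scale is shared with certainty between pools, and ratios between lists are descriptions. Promoter windows and sequences are from RefSeq and GRCm38. The 8 genes, the gene lists and the motifs were chosen with earlier results of these data known. All 8 genes are named with every peak, and of the gene lists the gene with the strongest peak in each condition and genes with a peak in 1 or 2 conditions, some of which are not reported here. Cyp24a1, Cyp27b1, Rxra, Rxrg and Rbbp7 were named after their values were seen. Alternatives were stricter q thresholds, equal peak numbers, exchanged lists, and other rules of annotation, overlap, window and motif. Python 3.11.15, numpy 2.4.6, pandas 2.3.3, pysam 0.24.0 and matplotlib 3.10.9 were used. As checks, the overlap step gave the count of bedtools 2.31.1 on adult peaks shifted at random (4254 peaks), 300 of 300 start site distances of shifted peaks equaled an exhaustive search, and 500 of 500 motifs planted in simulated sequence were found.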

Additional observations from a re-analysis of the deposited data

How the results depend on the processing

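No replicates exist, so that these alternatives concern counts only. Of 95 alternative counts, 61 stayed within 1.5 times the value reported and 34 did not. With each list reduced to its strongest 4169 peaks by fold enrichment, adult had 3 genes of the group with 3 assigned peaks and 7 within 50 kb, aged/anti-IL-17A/F had 4 peaks and 7, and 3 adult peaks were overlapped in aged/anti-IL-17A/F. By −log10 q the adult numbers were 3, 3 and 6, and those of aged/anti-IL-17A/F 4 and 7. The 3 adult genes were Cebpa, Ezh2 and Prdm1, so that Ezh2 and Prdm1 remained in adult and aged/anti-IL-17A/F without aged/IgG control, whereas Vdr was in neither list and Rora in aged/anti-IL-17A/F alone. A −log10 q of at least 10 left 7 adult and 4 aged/anti-IL-17A/F assigned peaks, with 9, 2 and 7 peaks within 50 kb in the adult, aged/IgG control and IL-17 antibody lists. With adult and aged/anti-IL-17A/F exchanged, the assigned peaks were 9 and 15 and those within 50 kb 11 and 19. With all RefSeq transcripts, predicted ones included, adult had 7 assigned peaks, 2 of them at Cebpa in place of 6, and Prdm1 none in any list, since predicted noncoding genes lie nearer. With protein-coding start sites only, there were 27, 5 and 18 assigned peaks, aged/IgG control had 2 genes (Cebpa and Cebpb), and Cebpb had peaks in every list, which ends its restriction to aged/anti-IL-17A/F. Its strongest aged/IgG control peak then lay 117180 bp downstream with a fold enrichment of 8.54, above 6.10 in adult and 5.56 in aged/anti-IL-17A/F, and one 100913 bp downstream had 3.41 against 2.95 and 2.81. Maf gained 1 peak in adult and 1 in aged/anti-IL-17A/F. Within 10 kb of a start site, adult and aged/anti-IL-17A/F had 5 assigned peaks each, Prdm1 had none and Rora was in adult alone, so that Ezh2 and Vdr kept their pattern. A window of 25 kb held 9, 1 and 5 peaks, and one of 100 kb held 7 in aged/IgG control. The looser NF-κB pattern was at 13, 1 and 6 peaks. The peaks at Vdr and at the Cebpb promoter, in the lowest 2 deciles of their lists, were in no list at equal peak number.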

Other observations

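The peaks at start sites lay in CpG-rich sequence. The adult peak at the start site of Cebpa held 51 CpG dinucleotides, that in the intron near the start of Ezh2 held 34, that at the second start site of Rora held 32 and the aged/anti-IL-17A/F peak at Cebpb held 50. The remaining adult peaks assigned to the 8 genes held between 0 and 11. Of these CpG-rich peaks, that of Ezh2 was the only one with the NF-κB consensus and the only one above the median fold enrichment of its list. The others had fold enrichments of 2.45 (Cebpa), 2.88 (Rora) and 2.43 (Cebpb).

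The adult peaks 116.3 kb upstream of Prdm1 and 233.1 kb upstream of the second start site of Rora carried the same fold enrichment, 3.54, and the same −log10 q, 11.1.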
